A study of Mus musculus with 9 samples.

Results

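Circular RNAs (circRNAs) were compared between 3 cell types of the developing mouse cortex, and the 7 described here are those of Anp32e, Zfp704, Adamts18 (a pair), Dgki, Tusc3 and Zc3h12c, from a panel of 10 that the study cloned and sequenced. They are 7 of the 5281 circRNAs of the deposited count table and were found by their identifiers. Proliferative progenitors (PP, negative for RFP and GFP), differentiative progenitors (DP, RFP positive and GFP negative) and newborn neurons (N, GFP positive) were sorted from the lateral cortex at embryonic day 14.5, with 3 libraries each. All cells came from C57BL/6 embryos of Btg2-RFP and Tubb3-GFP double heterozygous reporter mice, with meninges and ganglionic eminences removed, and all RNA was digested with RNase R, which degrades linear RNA. Btg2 marks progenitors that are about to generate neurons and Tubb3 marks neurons, so that each cell type is defined by its reporters alone. How many embryos were pooled per library, and whether libraries with the same replicate number share animals, is not stated, and p-values measure the spread between these libraries.

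A circRNA forms when the splicing machinery joins the 3′ end of an exon to the 5′ end of the same or an earlier exon, in a reaction called backsplicing. The resulting closed circle has no free ends and resists exonucleases such as RNase R, and circRNAs are known to be abundant in brain and in neurons. The counts used here are all reads on the exons of a circRNA and not only reads across the backsplice junction, so that linear RNA left after the digestion would be counted too, and its part in the results was not tested.

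The backsplice junction is the stretch that distinguishes each circle from the linear RNA of its gene, and it is shown here for the 7 circRNAs. Sequences were read from the mm9 genome (NCBIM37), with the last 30 bases of the circle in lower case and the first 30 bases in capitals, 5′ to 3′.
circAnp32e (CiCo_mm9_circ_004202): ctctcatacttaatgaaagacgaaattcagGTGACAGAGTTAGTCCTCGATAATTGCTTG
circZfp704 (CiCo_mm9_circ_004187): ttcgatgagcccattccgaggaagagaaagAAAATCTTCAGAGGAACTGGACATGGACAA
shorter circAdamts18 (CiCo_mm9_circ_006087): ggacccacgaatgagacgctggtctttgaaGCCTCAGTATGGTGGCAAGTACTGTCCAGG
longer circAdamts18 (CiCo_mm9_circ_006088): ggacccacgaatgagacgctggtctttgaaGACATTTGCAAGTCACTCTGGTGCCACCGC
circDgki (CiCo_mm9_circ_005431): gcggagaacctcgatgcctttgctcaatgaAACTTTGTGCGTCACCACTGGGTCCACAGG
circTusc3 (CiCo_mm9_circ_006222): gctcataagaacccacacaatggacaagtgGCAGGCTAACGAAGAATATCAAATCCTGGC
circZc3h12c (CiCo_mm9_circ_006631): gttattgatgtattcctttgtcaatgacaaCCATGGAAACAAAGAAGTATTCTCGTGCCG

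The circles of Adamts18 have the same 30 bases before the junction and differ after it, because they share their last exon and start at different exons. The study's cloning primers were made for these predicted circles and sit at the same starts and ends, so their match is no separate evidence. The products of these primers run from the first to the last base of the circle and do not cross the junction. Divergent RT-PCR primers, whose products cross it, were listed by the study for circAnp32e, circZfp704, both circles of Adamts18 and circTusc3. Each cloning primer carries a tail with a restriction site in lower case, followed by 25 bases in capitals. These match the first 25 bases of the circle or the complement of its last 25 bases. The circles of Adamts18 were amplified with different forward primers and 1 shared reverse primer.
Shorter circAdamts18, forward: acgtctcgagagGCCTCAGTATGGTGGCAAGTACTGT
Longer circAdamts18, forward: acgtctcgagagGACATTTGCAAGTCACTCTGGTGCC
Both, reverse: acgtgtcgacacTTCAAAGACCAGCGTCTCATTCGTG

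All 7 circRNAs start and end at annotated exon ends of a protein coding gene in GENCODE vM1, with AG before the first exon and GT after the last, as do 99.9% of the 5097 circRNAs of the table with ends at exon ends. They hold 37 exons in all. CircAnp32e has exons 2 to 5 of 7 (603 bases, chromosome 3, 95737832 to 95741962, plus strand) and circZfp704 exons 3 and 4 of 9 (331 bases, chromosome 3, 9470892 to 9474602, minus strand). The circles of Adamts18 lie on the minus strand of chromosome 8, the shorter with exons 13 to 16 of 23 (673 bases, 116260581 to 116267109) and the longer with exons 11 to 16 (918 bases, 116260581 to 116278559). CircTusc3 has exons 3 to 6 of 10 (490 bases, chromosome 8, 40126245 to 40160068, plus strand) and circZc3h12c exons 3 and 4 of 6 (375 bases, chromosome 9, 51928262 to 51934807, minus strand).

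CircDgki stands apart in its structure. It has 15 exons, 6 to 20 of 34 (1409 bases, chromosome 6, 36950042 to 37037694, minus strand), and 99.3% of circRNAs with ends at exon ends have fewer, where the median is 3. Its exons span 87653 bases of the genome, more than 99.7% of circRNAs. CircZfp704 has the highest GC content of the 7 (58.9%, above 94.6% of circRNAs) and follows an intron of 90461 bases, longer than 97.1% of the introns before circRNAs. CircAnp32e alone has an inverted match between the 1000 bases on either side of the circle, of 98 bases at 79.6% identity, and 14.5% of circRNAs have one by the same search.

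**Figure D1:**
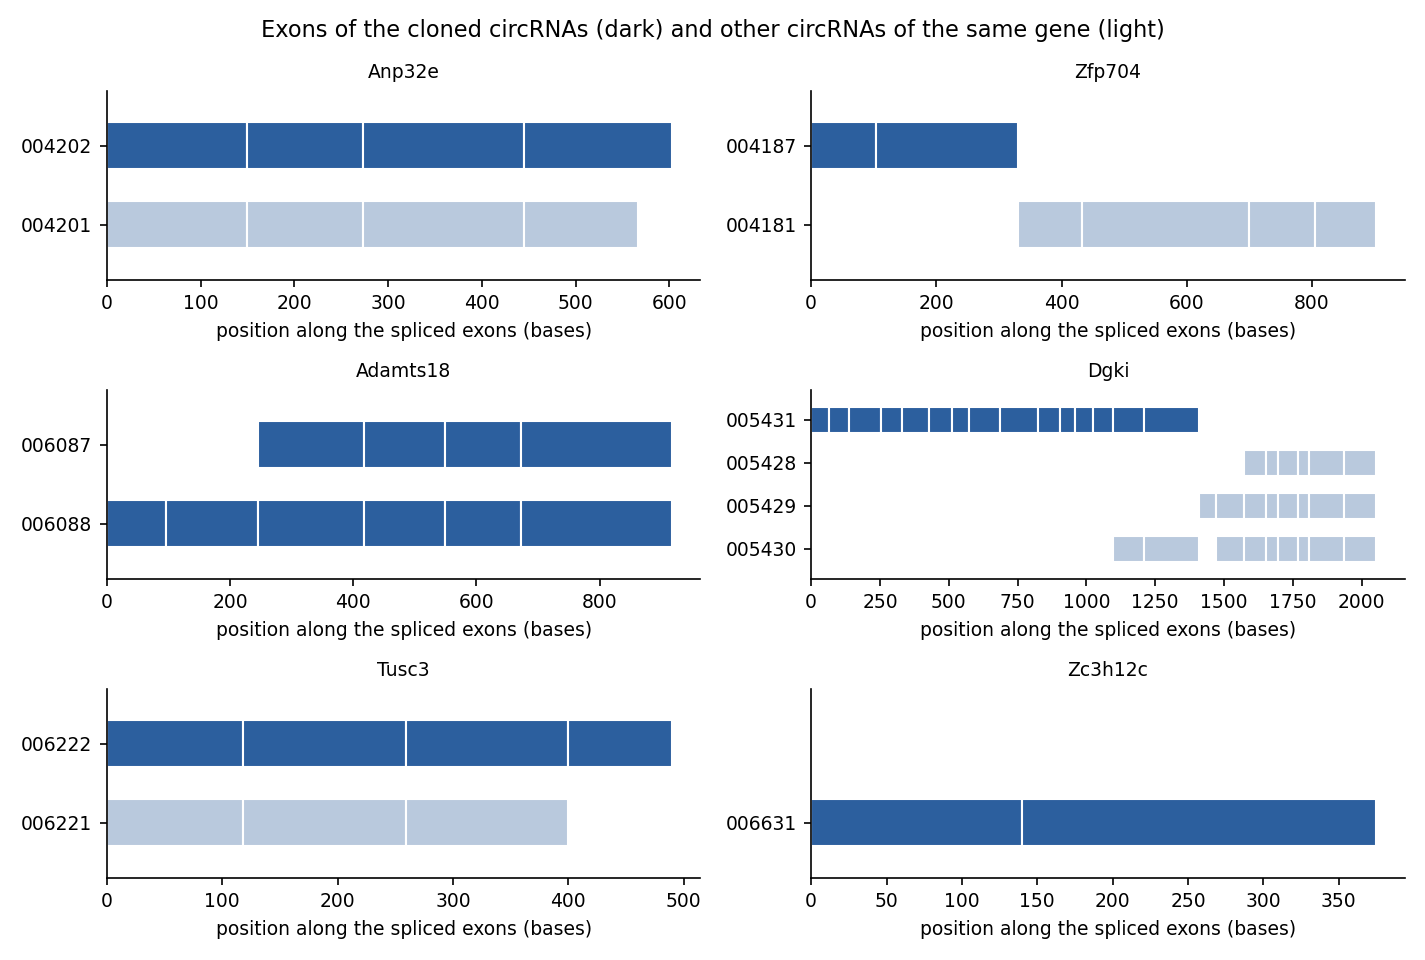
Exons of each circRNA, drawn as boxes along the spliced exons used by the circRNAs of its gene (x axis, bases, 5′ to 3′), with the last 6 characters of each identifier on the y axis. The cloned circRNAs are dark and the others of the same gene are light, and the circles of Anp32e, Adamts18 and Tusc3 are nested while those of Zfp704 share no exon. In Dgki, CiCo_mm9_circ_005428 is nested in CiCo_mm9_circ_005429 and CiCo_mm9_circ_005430.

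The exons of the 7 circRNAs are coding throughout, as are those of 80.8% of circRNAs. The lengths of circAnp32e, the longer circAdamts18 and circZc3h12c are multiples of 3 (3 of 7, against 37.8% of circRNAs), and read in the frame of the mRNA these circles have no stop codon in 3 rounds. In the others the frame changes at the junction, and a stop codon follows. CircAnp32e covers residues 19 to 219 of ANP32E, and 31.8% of the residues it covers are acidic.

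The level of each circRNA was expressed as counts per 1000000 with scaling by edgeR's TMM method (CPM), and as CPM per kilobase of counted length (RPKM) where circRNAs are compared with each other. Averaged over the 3 cell types, circAnp32e had 58.1 RPKM, more than 98.4% of the 5281 circRNAs. The other 6 lay between 3.57 RPKM (longer circAdamts18) and 9.93 RPKM (circTusc3), on both sides of the median of 6.76 RPKM, and 4 of them were above only 23.0% to 35.1% of circRNAs. By CPM, without the division by length, circDgki was above 68.0% of circRNAs and the longer circAdamts18 above 49.95%, and by RPKM they were above 25.7% and 23.0%.

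Total counts were between 2962787 and 8015311 per library, and 12 entries that each took over 1% of all counts held between 86.1% and 95.8% of each library. A floor of 3 counts corresponds to between 0.340 and 1.39 CPM. PP replicate 3 and N replicate 1 had the smallest effective library sizes of the 9 and are named below where they move a result. The cell types were checked by circRNAs of marker genes. Of 10 marker genes of PP, 4 have circRNAs in the table (Fgfr2, Notch1, Notch2 and Ptprz1), with 260.2 to 411 CPM in sum in PP, 96.2 to 127 in DP and 55.0 to 79.8 in N. Between N and DP, 8 of their 11 tested circRNAs passed as lower in N and 0 as higher. The fall from DP to N did not hold for each, as CiCo_mm9_circ_005387 of Ptprz1 had means of 78.2, 25.4 and 47.4 CPM in PP, DP and N. Of 10 marker genes of N, 7 have circRNAs, with 16.1 to 21.4 CPM in PP, 63.3 to 93.7 in DP and 345 to 406 in N. No circRNA of the table derives from the 5 marker genes of DP, so that the label of DP was not checked by its own markers. Of the marker genes of interneurons, endothelium, microglia and mesenchyme, Erbb4 alone has circRNAs, with 0 to 2.32 CPM in PP, 0 to 0.248 in DP and 3.43 to 6.75 in N, and the part of these cells in the results was not tested. In sorted populations, fewer cells with a circRNA and less of it per cell cannot be told apart.

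DP was the cell type in which each of the 7 circRNAs had its lowest or its highest level. The level was lowest in DP for 5, those of Zfp704, Adamts18 (both), Dgki and Tusc3, and highest in DP for circAnp32e and circZc3h12c. Over the 4406 circRNAs with enough counts to be tested, the fitted level was lowest in DP for 22.9% and highest in DP for 19.6%. Between any of the cell types, 5 of the 7 passed edgeR's quasi-likelihood test (adjusted p below 0.05 after Benjamini-Hochberg adjustment over all 4406), and 25.1% of all circRNAs tested did. These were circDgki (adjusted p = 0.00488), circZfp704 (0.00834), the longer circAdamts18 (0.0125), circAnp32e (0.0153) and the shorter circAdamts18 (0.0282). CircTusc3 (0.0723) and circZc3h12c (0.182) did not pass. In all counts of the 7, the circles of Adamts18 are not independent. The shorter lies inside the longer, and their counts may hold the same reads.

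**Figure D2:**
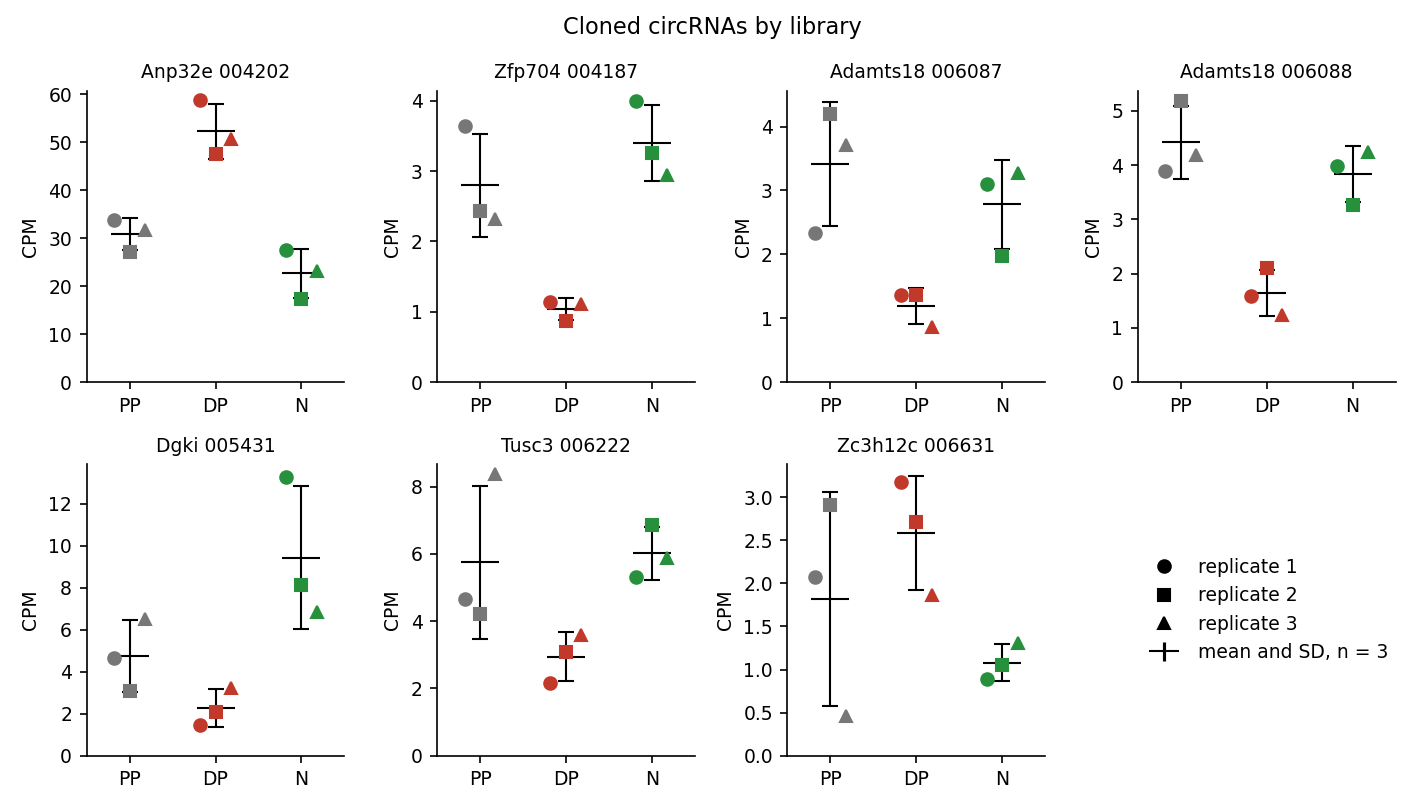
Level of each cloned circRNA (y axis, CPM) in PP, DP and N, with a symbol for each library and the mean and SD of the 3 libraries of a cell type. On this scale, with TMM factors, the libraries of N and DP do not overlap in any of the 7 panels. CircAnp32e and circZc3h12c are lower in N and the other 5 higher in N.

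The step from DP to N was the one with most changes. At the adjusted threshold, 4 circRNAs were higher in N (circZfp704, the longer circAdamts18, circDgki and circTusc3), where 9.03% of all circRNAs tested were, and circAnp32e was lower in N, where 9.8% were. In CPM the libraries of N and DP did not overlap for 7 of 7, against 38.9% of all circRNAs tested. This rests on the TMM factors, which were between 0.391 (N replicate 1) and 1.67 (PP replicate 2). Over total counts it did not hold for each. The longer circAdamts18 had 9 of 5772646 counts in N replicate 1 and 14 of 6569620 in DP replicate 1. Between DP and PP, the longer circAdamts18 passed and was lower in DP, as were 0.386% of all circRNAs tested. Between N and PP none passed, against 28% of all circRNAs tested. In that comparison 1 of the 7 (circDgki) had an unadjusted p under 0.05 in edgeR's test, and DESeq2 also gave 0 at the adjusted and 1 at the unadjusted threshold. The comparisons of DP with PP and of N with DP share the libraries of DP, and their values are given side by side for each circRNA.

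The calls depended on the scaling. Scaling by total counts, in which the 12 high entries weigh most, moved the median log2 FC of all circRNAs tested between N and DP from -0.02 to -0.37, and left 1 of the 7 past the threshold, circAnp32e. The direction between N and DP was kept for all 7 under that scaling. Without PP replicate 3 and N replicate 1 together, all 7 circRNAs passed between N and DP, 4 passed between DP and PP and 2 between N and PP. Calls rose over the whole table too. Of 4714 circRNAs tested in that fit, 1600, 659 and 1988 passed in these comparisons, against 830, 82 and 1235 of 4406 with all libraries.

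**Figure D3:**
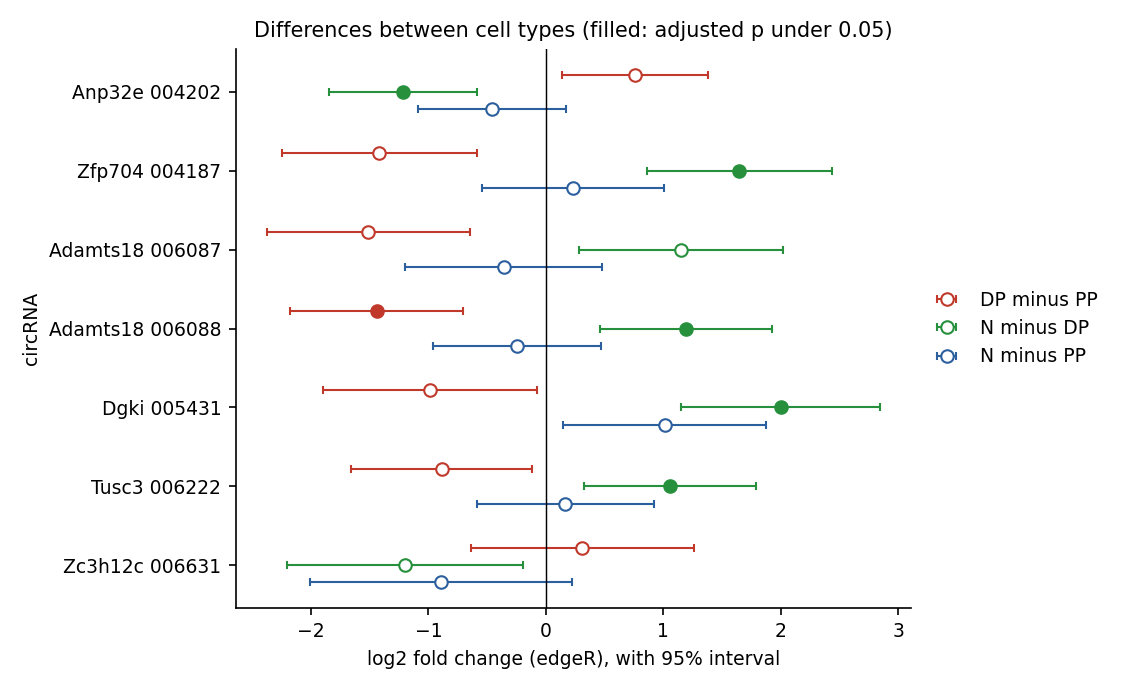
Log2 FC between cell types (x axis) with its 95% interval, from edgeR's model over all 9 libraries, for each cloned circRNA (y axis). Filled points passed at an adjusted p under 0.05, which are 5 of 7 for N minus DP, the longer circAdamts18 for DP minus PP and none for N minus PP.

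Anp32e encodes an acidic nuclear protein, a histone chaperone that removes the variant H2A.Z from chromatin. CircAnp32e had 33.8, 27.2 and 31.6 CPM in the PP libraries, 58.7, 47.5 and 50.6 CPM in DP, and 27.5, 17.2 and 23.2 CPM in N. All DP libraries were above those of PP and N, and PP and N overlapped. It was 2.33-fold lower in N than in DP (log2 FC -1.22 ± 0.29 SE, edgeR adjusted p = 0.00888), and this call was kept under all 18 alternatives, with log2 FCs between -1.71 and -1.05. The difference of DP from PP was 0.76 on the log2 scale (95% interval 0.14 to 1.38) and did not pass (edgeR adjusted p = 0.278). It passed under 1 of 18 alternatives, without PP replicate 3 and N replicate 1 together (edgeR adjusted p = 0.00230).

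A second entry of Anp32e, CiCo_mm9_circ_004201, uses the same first 3 exons and a donor site 36 bases earlier in the last exon. The 36 bases that only the cloned circle holds, at 95741927 to 95741962 of chromosome 3 on the plus strand, are shown because they are all that separates the entries.
circAnp32e, last bases: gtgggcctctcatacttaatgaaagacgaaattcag
The table counts 2028 reads over the 9 libraries for circAnp32e and 2000 for the entry inside it, and the difference per library was between 0 and 8 reads. The log2 FC between N and DP was -1.21 for the inner entry (SE 0.29, edgeR adjusted p = 0.00938). From these counts the donor sites cannot be told apart.

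Zc3h12c encodes a CCCH zinc finger protein of a family of RNA-degrading regulators that includes Regnase-1. Its circle was the other with its highest mean in DP, at 3.17, 2.71 and 1.86 CPM, against 2.08, 2.91 and 0.465 CPM in PP and 0.886, 1.05 and 1.31 CPM in N. The libraries of DP were all above those of N and overlapped those of PP. These values rest on 65 reads in DP, 27 in PP and 19 in N, with 1 read in PP replicate 3. The difference of N from DP was -1.20 on the log2 scale (95% interval -2.20 to -0.20) and did not pass (edgeR adjusted p = 0.0976). It passed under 3 of 17 alternatives and not under the other 14, DESeq2 among them (adjusted p = 0.175). The 3 include the fits without PP replicate 3 (edgeR adjusted p = 0.0304) and with the libraries of N and DP alone (0.0378). No other circRNA of the table lies in Zc3h12c.

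Dgki encodes diacylglycerol kinase iota, an enzyme that phosphorylates diacylglycerol to phosphatidic acid and is found in neurons. CircDgki had 13.3, 8.14 and 6.86 CPM in N, 1.47, 2.10 and 3.23 CPM in DP, and 4.67, 3.07 and 6.51 CPM in PP. The N libraries were above all others, and those of DP and PP overlapped. It had the largest change of the 7, 3.99-fold higher in N than in DP (95% interval of the log2 FC 1.15 to 2.85, edgeR adjusted p = 0.00230), which was lost under scaling by total counts alone (adjusted p = 0.123). Against PP the difference of N was 1.01 (95% interval 0.15 to 1.87, edgeR adjusted p = 0.0776). It passed under 2 of 18 alternatives, the fit without PP replicate 3 among them (edgeR adjusted p = 0.0196).

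The 3 other circRNAs of Dgki end at the same downstream exon and lie mostly beyond circDgki. CiCo_mm9_circ_005428 and CiCo_mm9_circ_005429 share no base with circDgki, and CiCo_mm9_circ_005430 shares 312 bases. CiCo_mm9_circ_005428 lies inside both CiCo_mm9_circ_005429 and CiCo_mm9_circ_005430, which share 582 bases with each other. The counts of these 3 may thus hold the same reads, and their results are not independent. In each of the 3, the PP libraries overlapped those of DP and those of N. All 3 had a higher mean in N than in DP, with libraries of N and DP that did not overlap. The log2 FC was 1.97 for CiCo_mm9_circ_005430 (SE 0.43, edgeR adjusted p = 0.00475), 1.76 for CiCo_mm9_circ_005429 (SE 0.46, edgeR adjusted p = 0.0149) and 1.83 for CiCo_mm9_circ_005428 (SE 0.64, edgeR adjusted p = 0.0620). The last did not pass and rests on 2 to 28 reads per library.

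Zfp704 encodes a zinc finger protein of little known function. CircZfp704 had 3.99, 3.26 and 2.94 CPM in N, 1.13, 0.864 and 1.12 CPM in DP, and 3.64, 2.43 and 2.32 CPM in PP. All DP libraries were below those of both other cell types, which overlapped. N was 3.13-fold above DP (log2 FC 1.65 ± 0.37 SE, edgeR adjusted p = 0.00541), a call lost under scaling by total counts alone (adjusted p = 0.352). The difference of DP from PP was -1.42 (95% interval -2.25 to -0.59) and did not pass (adjusted p = 0.0845). Its counts were between 5 and 28 per library.

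The second circRNA of Zfp704, CiCo_mm9_circ_004181, has exons 5 to 8 (572 bases) and shares no base with circZfp704. It had 5.76, 5.12 and 3.92 CPM in N, 2.72, 0.987 and 2.61 CPM in DP, and 4.42, 3.72 and 2.79 CPM in PP. The PP libraries were all above those of DP and overlapped those of N. The difference of DP from PP was -0.81 on the log2 scale and did not pass (edgeR adjusted p = 0.481). The N libraries were again all above those of DP, 2.28-fold in the fit (log2 FC 1.19 ± 0.38 SE, edgeR adjusted p = 0.0437).

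Adamts18 encodes a secreted metalloproteinase of the extracellular matrix. Its longer circle had 3.90, 5.17 and 4.18 CPM in PP, 1.59, 2.10 and 1.24 CPM in DP, and 3.99, 3.26 and 4.25 CPM in N. All DP libraries lay below those of PP and N, and PP and N overlapped. It was 2.71-fold lower in DP than in PP (log2 FC -1.44 ± 0.34 SE, edgeR adjusted p = 0.0491) and 2.29-fold higher in N than in DP (log2 FC 1.19 ± 0.34 SE, edgeR adjusted p = 0.0236). The first call was lost under 12 of 17 alternatives and the second under 5 of 17, with the direction kept in all.

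The shorter circle of Adamts18 lies inside the longer one and adds no base of its own. It had 2.34, 4.20 and 3.72 CPM in PP, 1.36, 1.36 and 0.870 CPM in DP, and 3.10, 1.98 and 3.27 CPM in N. The DP libraries were again the lowest, and neither the difference of DP from PP (-1.51 on the log2 scale, 95% interval -2.38 to -0.65, adjusted p = 0.0788) nor that of N from DP (1.15, 95% interval 0.29 to 2.02, adjusted p = 0.0635) passed in edgeR's test. The longer circle has 245 bases of exons 11 and 12 that the shorter lacks. Exon 11, at 116278464 to 116278559 of chromosome 8 on the minus strand, is shown as the first of these.
Longer circAdamts18, exon 11: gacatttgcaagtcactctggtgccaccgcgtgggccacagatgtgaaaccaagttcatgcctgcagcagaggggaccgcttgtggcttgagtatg
Over the 9 libraries the longer circle had 160 reads and the shorter 117, so that 43 reads, between 1 and 11 per library, separate the entries.

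Tusc3 encodes a subunit of the oligosaccharyltransferase, the complex that attaches N-glycans to proteins in the endoplasmic reticulum, and is also known for a role in magnesium transport. CircTusc3 had 4.67, 4.20 and 8.37 CPM in PP, 2.15, 3.08 and 3.60 CPM in DP, and 5.32, 6.86 and 5.88 CPM in N. The DP libraries were the lowest, and the highest value of all was that of PP replicate 3. N was 2.08-fold above DP (log2 FC 1.05 ± 0.34 SE, edgeR adjusted p = 0.0448), a call that was lost under 10 of 18 alternatives, DESeq2 among them (adjusted p = 0.0511), with the direction kept. The difference of DP from PP was -0.89 (95% interval -1.65 to -0.12) and did not pass (adjusted p = 0.317).

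The other circRNA of Tusc3, CiCo_mm9_circ_006221, has the same start and lacks the last exon, at 40159979 to 40160068 of chromosome 8 on the plus strand, whose sequence is shown as the stretch that only the cloned circle holds.
circTusc3, exon 6: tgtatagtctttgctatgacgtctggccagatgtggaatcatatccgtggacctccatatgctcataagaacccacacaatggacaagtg
The table counts 242 reads for circTusc3 over the 9 libraries and 211 for the inner entry. The inner entry had a log2 FC between N and DP of 1.01 (SE 0.35, edgeR adjusted p = 0.0636).

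The counts of nested circRNAs had a common order. In the 5 nested pairs of these genes the outer circle had at least as many reads as the inner one in every library. The same was found for all 1506 nested pairs of circRNAs of one gene in the table whose counted length matches the annotated exons, in 13554 comparisons of a pair within a library. How reads on exons shared by several circRNAs were assigned is not stated in the sources used here, and its part in this order was not tested. Where such reads are counted for each circRNA that holds them, an outer count cannot be below an inner one. The order is therefore not read as a difference in abundance.

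**Figure D4:**
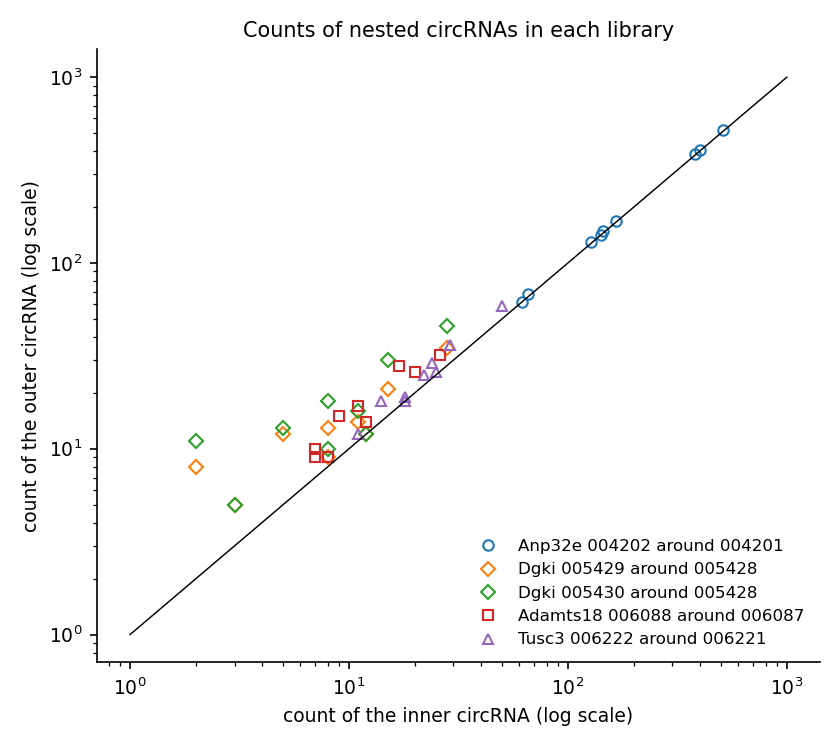
Count of the outer circRNA (y axis, log scale) against that of the inner circRNA (x axis, log scale) in each of the 9 libraries for the 5 nested pairs, named by gene and the last 6 characters of the identifiers, with the line of equal counts. No point lies below the line, and the points of Anp32e lie almost on it, with 2000 reads for the inner and 2028 for the outer circRNA in sum.

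Whether the cloned circRNA took a different share of the counts of its gene in the 3 cell types was tested in the 5 genes with another circRNA, by an exact permutation test over libraries on log2 of the ratio of the cloned circRNA to the others, with 0.5 added to each. For Adamts18 the longer circle was set against the shorter. In Anp32e, Adamts18 and Tusc3 one circle lies inside the other and the inner count was 98.6%, 73.1% and 87.2% of the outer, so that the ratio had little room to vary and nothing is read from the test there. In Zfp704 (exact permutation test, p = 0.307, adjusted over the 5 genes 0.768) and Dgki (exact permutation test, p = 0.893, adjusted 0.893) the test did not pass, and the smallest p the design allows is 0.00357. For Dgki the log2 ratio averaged -0.51 ± 0.90 in PP (SD, n = 3), -0.66 ± 0.96 in DP and -0.55 ± 0.15 in N. This ratio is limited too, because the other circRNAs of Dgki overlap each other and CiCo_mm9_circ_005430 shares 312 bases with circDgki. For Zfp704, whose circles share no exon, the log2 ratio averaged -0.37 ± 0.20 in PP (SD, n = 3), -0.86 ± 0.59 in DP and -0.52 ± 0.12 in N.

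The other 3 cloned circRNAs of the panel gave a comparison. CircRNAs of Mfng, a modifier of Notch, and Kif26b, a kinesin, were highest in DP and passed in both steps, with 9.67 and 8.23 CPM in DP against 2.74 and 0.544 CPM in PP and 2.16 and 1.15 CPM in N (means of 3 libraries). The circRNA of Ptprz1, a receptor phosphatase of radial glia, had 3.81, 2.11 and 4.20 CPM in PP, DP and N and passed in neither step.

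Among 2166 circRNAs of named genes with a mean level at or above the median, the likeness to each cloned circRNA with at least 10 reads in every library of some cell type was measured as Pearson's r of log2(CPM + 1) over the 9 libraries, which share their depth and scaling. CircAnp32e was most like circRNAs of Mfng (r = 0.944) and Rhbdl3 (r = 0.877), the longer circAdamts18 like those of Ptprz1 (CiCo_mm9_circ_005387, r = 0.827) and Schip1 (r = 0.823), and circDgki like those of Zfp512 (r = 0.965) and Atp6v0d1 (r = 0.954). CircTusc3 was most like another circRNA of Zfp512 (r = 0.949) and that of Schip1 (r = 0.871), and circZc3h12c like that of Vezf1 (r = 0.950).

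Relatives of the 6 genes had few circRNAs in the table. Of the ANP32 family, the 1 circRNA of Anp32b fell from 7.79 CPM ± 3.04 (SD, n = 3) in DP to 1.20 ± 0.851 in N (log2 FC -2.53 ± 0.46 SE, edgeR adjusted p = 0.00124), and was also lower in N than in PP. Of 4 tested circRNAs of other diacylglycerol kinases, that of Dgke rose from DP to N (log2 FC 1.27 ± 0.40 SE, edgeR adjusted p = 0.0383) and the 3 of Dgkd did not pass in any comparison. Of 3 tested circRNAs of other ADAMTS genes, that of Adamts3 rose from DP to N (log2 FC 2.51) and was higher in N than in PP, and 1 of the pair of Adamts7 was higher in DP than in PP. None of the 5 tested circRNAs of other oligosaccharyltransferase subunits (Rpn1, Rpn2 and Stt3b) passed in any comparison of 2 cell types in edgeR's test. The circRNA of Zc3h12b had too few reads to be tested, and no circRNA of the table lies in the relatives of Zfp704.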

How the data were processed

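Per the labels and the study's methods, RNA digested with RNase R was sequenced without mRNA enrichment, and the authors aligned reads with gsnap to mm9, predicted circRNAs with find_circ and counted reads with featureCounts (Subread 1.6.0 and bcl2fastq 1.8.4, per the labels). The deposited values are raw counts per circRNA and library, which the authors did not normalise, together with a counted length in bases. The version of gsnap is not given in the sources used here.

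Here, counts were filtered by filterByExpr, scaled by TMM and tested with edgeR 4.0.16 (quasi-likelihood, 1 model over 9 libraries without a block, Benjamini-Hochberg adjustment over 4406 circRNAs, threshold 0.05) in R 4.3.3. The test was tried on simulated data. RPKM is CPM per kilobase of counted length. Exons came from GENCODE vM1 on the same build, inverted matches from blastn 2.17.0 and shares from exact permutation tests in Python 3.11.15. Cloning primers were taken from the study's primer list. The alternatives were RLE, total counts, DESeq2 1.42.0, other filters, a replicate block, libraries left out, high entries left out, and fits of 2 cell types. Floors cover counting error only, while the 95% intervals of log2 FCs come from edgeR's model and include the spread between libraries. Total counts were between 2962787 and 8015311 per library. Named circRNAs were the cloned ones, all others of their genes, the 3 other cloned ones, the 2 most alike in pattern per circRNA, and relatives by gene symbol, of which 1 of those alike in pattern is not reported here. The members and lists were chosen with earlier results of these data known.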

Additional observations from a re-analysis of the deposited data

How the results depend on the processing

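The counts of cloned circRNAs past the threshold varied with the setting, and the direction of single differences did less. Over 364 values of a member's log2 FC under an alternative, 3 changed sign, all between N and PP where no call had been made, for circZfp704 under total counts (-0.058) and for circTusc3 under total counts (-0.012) and without PP replicate 2 (range with each library left out -0.046 to 0.50). Between any cell types, 5 passed, against 0 with total counts and 2 of 3 with at least 10 counts in every library, and between 2 and 6 with each library left out. Between N and DP, 5 passed, against 1 with total counts, 2 of 3 with at least 10 counts in every library and between 3 and 7 with each library left out. The lowest, 3, came without DP replicate 1, DP replicate 3 or N replicate 3, and the highest without PP replicate 3. Between DP and PP, 1 passed, against 0 with total counts, without a filter, with at least 10 counts in every library, without the high entries and with the 2 cell types alone, and between 0 and 1 with each library left out. Without PP replicate 3 and N replicate 1 together, 4 passed between DP and PP and 2 between N and PP, where 659 and 1988 of all 4714 circRNAs tested did. Between N and PP, 0 passed and between 0 and 1 with each library left out. With the replicate number as a block, 4 passed between any cell types, 3 between N and DP, 0 between DP and PP and 0 between N and PP. Correlations of deviations from the mean of a cell type were between -0.26 and 0.30 for equal numbers and between -0.34 and 0.325 for unequal ones. With 3 libraries per mean these deviations are tied to each other. Whether equal numbers share animals cannot be read from them. The count of genes with a different share was 0 in every alternative, the block included, and nothing is read from it in the 3 genes whose ratio sets a circle against one nested in it. The ratio of Dgki is limited by bases shared between its circRNAs. Fewer circRNAs or libraries enter the filtered and left-out fits, and otherwise the cause was not tested.

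Depth limits circZfp704, both circles of Adamts18 and circZc3h12c most, each with under 10 reads in at least 2 libraries.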
